A study of Mus musculus with 4 samples.

Results

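The chaperonin CCT, also called TRiC, is a cytosolic folding machine, and its 8 subunit genes Tcp1, Cct2, Cct3, Cct4, Cct5, Cct6a, Cct7 and Cct8 were followed through the lungs of mice that had inhaled hexamethylene diisocyanate (HDI). Its members were all probe sets whose platform gene symbol was one of these 8, which gave 13 of 12488 probe sets and 8 of 8251 genes with a named probe set. The groups were 3 exposed pools of C57BL/6J whole lungs, removed at 6, 18 and 90 h from inhaling aerosolised HDI at 10 mg per cubic metre, and 1 pool of unexposed C57BL/6J lungs. HDI is a reactive chemical of polyurethane paints and coatings that irritates the airways. Total RNA of each pool was read on 1 Affymetrix mouse array. The strain is an inbred line, and the unexposed pool is titled as time 0. The labels state neither how many mice made up a pool nor how long the exposure lasted, nor any handling of the unexposed mice.

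CCT forms a barrel of stacked rings, each built from all 8 subunits in a fixed order, and folds proteins inside its cavity with the energy of ATP. The cytoskeletal proteins actin and tubulin depend on it. Prefoldin hands it unfolded chains, phosducin-like proteins help it with some clients, and tubulin cofactors take over the tubulins that it releases. The complex is present in most cells, so whole lung RNA does not tell which cell type a transcript came from. In these pools fewer cells of a type and less RNA per cell cannot be told apart.

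With 1 array per pool there was no replicate, so no difference carries a p-value and each fold describes these arrays. All differences from unexposed lungs rest on the same unexposed array. Levels are scaled intensities in arbitrary units, and dim values were raised to a floor of 77.7 units, the 40th percentile over the 4 arrays, before log2 was taken. A gene was represented by its brightest probe set. The disagreement between probe sets of 1 gene is given as a robust SD per single probe set. It was 0.27, 0.28 and 0.24 log2 units for the differences from unexposed lungs at 6, 18 and 90 h. The SD of the difference within a pair of probe sets is larger. Pairs above the floor and without a suffix for possible cross-hybridisation were used, so probe sets with one may disagree more. The value leaves out variation between animals and between hybridisations. Intensities of different genes come from different probes and are not compared with each other.

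The pools were checked once for tissue and quality. Of 8 lung epithelial markers 6 were on the array and 5 were above the floor. Sftpc, a surfactant protein of type II cells, read 9874, 9435, 9136 and 9248 units in the unexposed, 6, 18 and 90 h pools, whereas Sftpd was at the floor in all 4. The ratio of 3' to 5' signal, a sign of RNA integrity, was lowest for Gapdh at 18 h (1.12, against 1.16 to 1.22 in the others) and ranged from 1.30 to 1.55 for beta-actin. The 3' Gapdh control read 2973 units at 18 h and 1860 units in the unexposed pool. Summed dividing cell markers, with 11 of 12 on the array and Mcm2 and Rrm2 at the floor, were 1056, 1108, 1227 and 2286 units. Summed macrophage and monocyte markers, 7 of 7 on the array with Marco at the floor, were 3948, 3166, 3138 and 4853 units. The 4 of 5 B cell markers on the array summed to 1790, 861, 1227 and 1259 units. Sums for 6 of 6 endothelial markers were 4972, 4723, 4355 and 4629 units. For 6 of 6 neutrophil markers, with Ly6g at the floor, the sums were 1143, 990, 922 and 1215 units. The 5 of 6 T cell markers, with Cd3g, Cd3d and Cd8a at the floor, summed to 344, 313, 267 and 322 units. Sums for the 6 lung epithelial markers were 28266, 25552, 24913 and 24026 units, for 7 of 7 heart and skeletal muscle markers 4223, 4002, 3794 and 3105 units, and for 4 of 5 platelet and erythroid markers, with Pf4 and Gp1bb at the floor, 8517, 8766, 7920 and 6489 units. At 18 h the dividing cell sum was higher than in unexposed lungs and the 8 other sums were lower. A sum is carried by its brightest gene, and single markers could differ from it: Hba-a1 made up 7509 units of the platelet and erythroid sum at 18 h and 8195 units in unexposed lungs, while Alas2 read 361 and 256 units. Among the epithelial markers Sftpb and Pdpn were higher at 18 h than in unexposed lungs, at 4398 against 3603 units and 584 against 402 units. Their part in the results was not tested.

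The sequence before each start site is shown for 4 subunits whose courses differed. They are Cct3, Cct7, Cct6a and Tcp1. Cct3 stood furthest above unexposed lungs. Cct6a was highest at 6 h by the probe set used and not by its other one. Tcp1 was highest at 90 h, at 225 units against 220 units at 18 h. The level of Cct7 was lowest at 6 h, as those of Cct4 and Cct8 were. Each line gives the 250 bases before the start, 5′ to 3′ on the plus strand, which is that of the gene, from RefSeq on GRCm38.p6. They lie at chr3:88296885-88297134 for Cct3, chr6:85451255-85451504 for Cct7, chr5:129787106-129787355 for Cct6a and chr17:12916079-12916328 for Tcp1. Capitals mark the CCAAT box (CCAAT) and the GC box (GGGCGG), a site of Sp1-type factors, on either strand.
Cct3: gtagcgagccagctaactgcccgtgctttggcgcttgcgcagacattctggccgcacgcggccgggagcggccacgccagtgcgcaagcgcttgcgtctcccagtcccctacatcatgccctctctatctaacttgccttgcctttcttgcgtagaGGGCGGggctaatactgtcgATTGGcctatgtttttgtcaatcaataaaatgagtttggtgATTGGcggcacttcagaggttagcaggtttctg
Cct7: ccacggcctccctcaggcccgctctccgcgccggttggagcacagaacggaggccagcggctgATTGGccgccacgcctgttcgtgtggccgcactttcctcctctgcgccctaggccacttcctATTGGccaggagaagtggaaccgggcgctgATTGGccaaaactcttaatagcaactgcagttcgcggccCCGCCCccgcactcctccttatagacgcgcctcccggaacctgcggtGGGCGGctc
Cct6a: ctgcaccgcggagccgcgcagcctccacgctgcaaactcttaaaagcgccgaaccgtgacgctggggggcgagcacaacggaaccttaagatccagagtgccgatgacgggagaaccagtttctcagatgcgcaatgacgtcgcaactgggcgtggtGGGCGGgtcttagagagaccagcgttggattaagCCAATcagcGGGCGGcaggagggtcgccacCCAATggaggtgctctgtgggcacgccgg
Tcp1: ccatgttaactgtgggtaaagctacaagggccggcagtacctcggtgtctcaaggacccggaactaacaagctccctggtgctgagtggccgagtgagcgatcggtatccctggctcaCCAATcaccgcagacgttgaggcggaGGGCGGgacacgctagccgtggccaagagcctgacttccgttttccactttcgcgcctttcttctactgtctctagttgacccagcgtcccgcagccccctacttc
Promoters of 7 subunits were available as windows of 300 bases that reach 50 bases past the start, 9 windows in all, since Cct2 and Cct5 had more than 1 start; that of Cct4 was not analysed here. The GC box was found in 8 of the 9 windows and for 7 of 7 subunits, against 35.7% of 32851 mouse promoter windows of the same length. The CCAAT box was found in 4 of the 9 windows (those of Cct3, Cct6a, Cct7 and Tcp1), a share near the 37.4% of all windows. These 4 are the ones printed, while the windows of Cct2, Cct5 and Cct8 held none. The printed sequences thus do not stand for all 7 subunits. The heat shock element in the form GAANNTTC occurred only in a window of Cct2, that of its start inside the gene, beginning 42 bases before it. This form was found in 7.86% of all windows. The E-box CACGTG, found in 7.15% of all windows, and the cyclic AMP response element TGACGTCA, in 1.79%, matched none of the 9. A match is only a match of letters, and the other subunits may hold such motifs outside these windows or in another form.

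At 18 h all 8 subunits stood above unexposed lungs. Their median log2 difference was 0.40, against -0.01 for all 6040 genes compared, and the 8 of 8 above 0 compare with 48.1% of all genes. With deposited values unscaled it was again 8 of 8, against 63.8% of all genes. The steps were small for most: 1 of 8, Cct3, was at least 1.5-fold higher, while 6.79% of all genes were, and none was lower, against 6.13%. Cct3 was also past 2-fold, as were 1.59% of all genes; none was 2-fold lower, against 0.944%. Cct3 fell short of 2-fold with a pseudocount in place of the floor (log2 difference 0.99) and with its probe sets averaged (0.88). Without Cct3 the median of the other 7 was 0.39, and they spanned 0.22 to 0.44. Of the 8 differences 7 lay above the 75th percentile of all genes (0.23), and 7 were larger than the probe set disagreement of 0.28. Tcp1 was the exception to both. Cct6a is counted here by its brightest probe set (0.35). Its other probe set gave -0.58, with the 18 h value at the floor, and both are marked, unlike those behind the 0.28.

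Cct3, the gamma subunit, had the widest course. Its brightest probe set, 98153_at, read 156, 221, 342 and 197 units in the unexposed, 6, 18 and 90 h pools. The 18 h pool was thus highest and the unexposed pool lowest, and the 18 h level was 2.19-fold that of unexposed lungs. The gene lies at chr3:88297135-88321766 (GRCm38.p6). Its other probe sets gave the same order of the highest and lowest pools: 98446_s_at read 171, 207, 348 and 173 units, and 161238_f_at read 107, 132, 151 and 131 units. The sizes were unequal, since the log2 differences at 18 h were 1.13, 1.03 and 0.49 by the 3 probe sets, and the suffixes of the last and of 98446_s_at mark possible cross-hybridisation.

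Cct4, the delta subunit (chr11:22990593-23003336), read 384, 355, 521 and 468 units in the unexposed, 6, 18 and 90 h pools. It was lowest at 6 h and highest at 18 h, 1.36-fold above unexposed lungs, and still 1.22-fold above them at 90 h. Cct5, the epsilon subunit (chr15:31590800-31601846), read 442, 443, 579 and 551 units. Its level at 6 h was within 1% of that in unexposed lungs, and both later pools were higher, by 1.31-fold and 1.25-fold. Its other probe set was below the floor in all 4 pools and gave no difference.

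Cct7, the eta subunit (chr6:85451505-85468477), read 445, 382, 563 and 450 units in the unexposed, 6, 18 and 90 h pools. It was lowest at 6 h, at 0.859 times the unexposed level, and highest at 18 h, at 1.27 times. Cct8, the theta subunit (chr16:87483325-87495869), had the same shape with 222, 211, 299 and 240 units. Its level was 1.35-fold that of unexposed lungs at 18 h and 1.08-fold at 90 h. The 6 h differences of both, -0.22 and -0.07 on the log2 scale, were smaller than the probe set disagreement.

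Cct2, the beta subunit (chr10:117050997-117063852), read 221, 261, 295 and 214 units in the unexposed, 6, 18 and 90 h pools. At 6 h it was 1.18-fold above unexposed lungs. It was highest at 18 h, 1.33-fold above unexposed lungs, and at 90 h its log2 difference was -0.05. Tcp1, the alpha subunit and the first of the complex to be named (chr17:12916329-12925067), read 189, 206, 220 and 225 units. It was the only subunit with its highest level at 90 h, and its log2 differences of 0.12, 0.22 and 0.25 stayed near or below the probe set disagreement. Its other probe set was below the floor in all 4 pools.

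Cct6a, a zeta subunit (chr5:129787356-129846443), was the only one with its highest level at 6 h, with 215, 300, 275 and 211 units in the unexposed, 6, 18 and 90 h pools by probe set 162279_f_at. This gave 1.40-fold at 6 h and 1.28-fold at 18 h over unexposed lungs, with a log2 difference of -0.02 at 90 h. Its other probe set, 160459_r_at, ran the opposite way, with 116, 57.1, 72.7 and 251 units, so that 6 and 18 h were below the floor and 90 h was highest. Both probe sets carry a suffix that marks possible cross-hybridisation or relaxed probe selection, so the course of Cct6a is uncertain. With both averaged its log2 differences were -0.05, -0.11 and 0.54 at 6, 18 and 90 h. The count of subunits above 0 at 18 h is then 7 of 8.

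**Figure D1:**
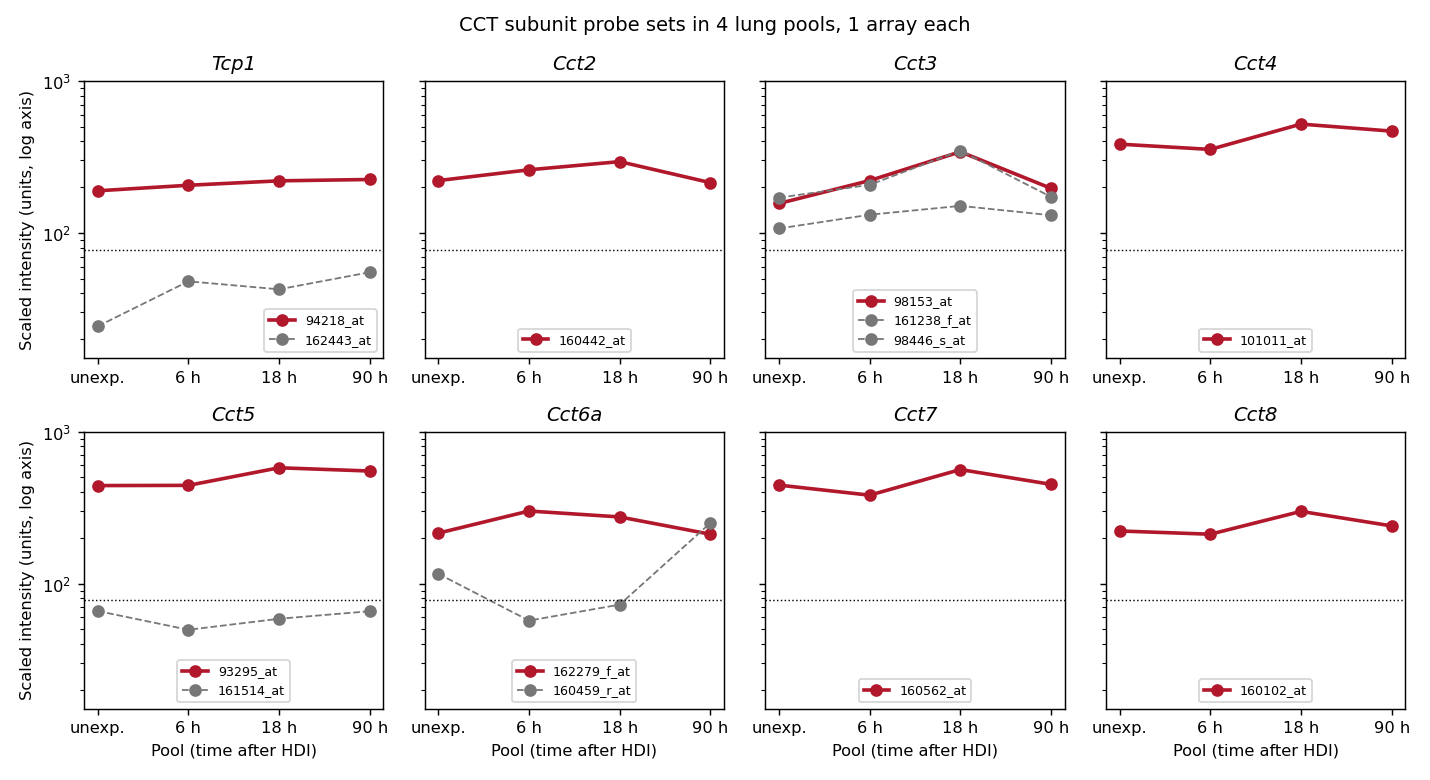
Scaled intensity (units, log axis) of each CCT probe set in the 4 pools, 1 panel per gene and 1 array per point. Solid red lines are the probe sets used, dashed grey lines the others, and the dotted line is the floor of 77.7 units. Of the 8 red lines 6 peak at 18 h, Cct6a peaks at 6 h, and Tcp1 is highest at 90 h.

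At 6 h the subunits lay on both sides of the unexposed level, most of them within the probe set disagreement. Their median log2 difference from unexposed lungs was 0.06, against -0.04 for all genes, and 5 of 8 were above 0, as were 45.4% of all genes. With unscaled values 6 of 8 were above 0, against 58.9% of all genes, the sign of Cct8 having turned. None was at least 1.5-fold higher, while 7.15% of all genes were, and none was lower, against 6.06%. Cct3 (0.50), Cct6a (0.48) and Cct2 (0.24) were higher, and only the first 2 exceeded the probe set disagreement of 0.27. The other Cct6a probe set gave -0.58, with the 6 h value at the floor. Cct4, Cct7 and Cct8 were below 0 by 0.22 or less, and Cct5 (0.00) and Tcp1 (0.12) were close to the unexposed level.

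At 90 h the differences were small again. The median was 0.18, against 0.03 for all genes, and 6 of 8 subunits were above 0, as were 53.8% of all genes. With unscaled values 8 of 8 were above 0, against 69.9% of all genes, so the sign of Cct2 and Cct6a at this time turns with the scaling. None was at least 1.5-fold higher or lower, against 3.40% and 4.88% of all genes. Cct3 (0.33), Cct5 (0.32), Cct4 (0.29) and Tcp1 (0.25) were above the 75th percentile of all genes (0.22), while Cct8 (0.11), Cct7 (0.02), Cct6a (-0.02) and Cct2 (-0.05) were not. The SD among the 8 was 0.27, 0.28 and 0.16 at 6, 18 and 90 h. Cct3 carried that at 18 h: the other 7 spanned -0.22 to 0.48 at 6 h, 0.22 to 0.44 at 18 h and -0.05 to 0.32 at 90 h. By the probe sets used these 7 thus lay closest together at 18 h. With the uncertain Cct6a also left out, the rest spanned -0.22 to 0.24 at 6 h, 0.22 to 0.44 at 18 h and -0.05 to 0.32 at 90 h. The 18 h pool was then again the closest. With Cct6a kept and probe sets averaged the 7 spanned -0.22 to 0.24 at 6 h and -0.11 to 0.44 at 18 h. In that setting 18 h was no longer the closest.

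**Figure D2:**
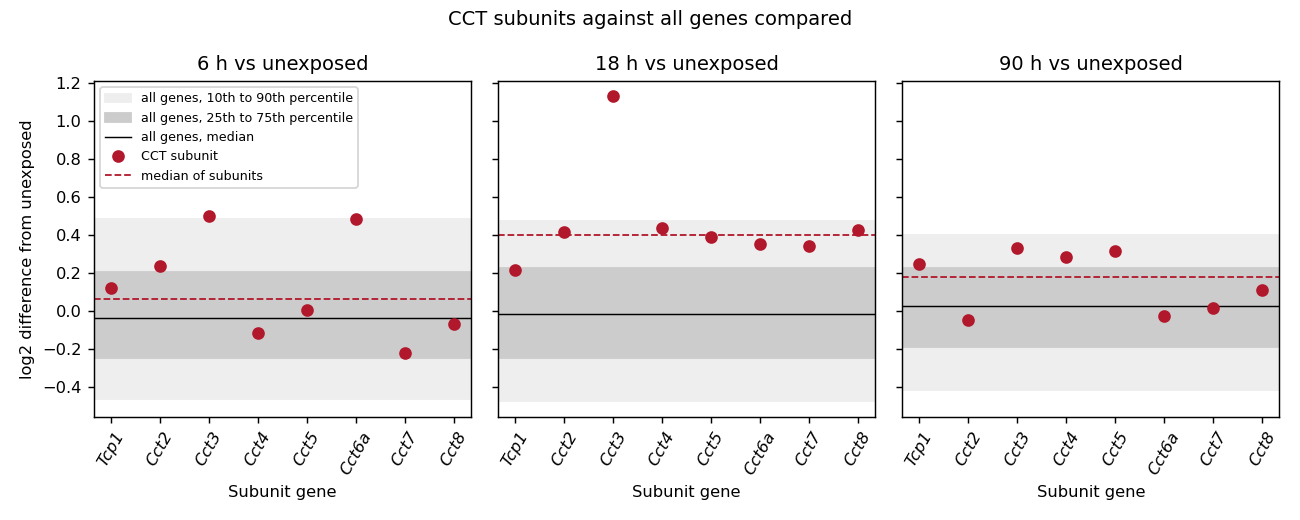
Log2 difference from the unexposed pool (y axis) of the 8 subunits (red points, x axis) at 6, 18 and 90 h. Grey bands span the 10th to 90th and the 25th to 75th percentiles of all genes compared, the black line is their median and the dashed red line the median of the subunits. At 18 h 7 of 8 points lie above the inner band, and Cct3, at 1.13, lies above the outer one.

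For the median of the subunits most of the step fell between 6 and 18 h. The median log2 difference of 18 h over 6 h was 0.44, against 0.00 for all 5994 genes compared, and 7 of 8 subunits were above 0, as were 49.3% of all genes. Cct3 was 1.55-fold higher, Cct7 1.47-fold, Cct4 1.47-fold, Cct8 1.41-fold and Cct5 1.31-fold. Of these only Cct3 passed 1.5-fold, which 5.34% of all genes did, and none was 1.5-fold lower, against 4.77%. Cct2 (0.18) and Tcp1 (0.10) differed less, and Cct6a was lower at 18 h (-0.13), each within the probe set disagreement of 0.25. For Cct2, Tcp1 and Cct6a the difference of 6 h over unexposed lungs was larger, at 0.24, 0.12 and 0.48. Cct3 stood 0.50 above unexposed lungs at 6 h already.

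From 18 to 90 h the subunits were lower again. The median log2 difference of 90 h over 18 h was -0.32, against 0.02 for all genes, and 1 of 8 was above 0, as were 53.1% of all genes. Cct3 was 1.74-fold lower and the only one past 1.5-fold, as were 3.97% of all genes. None was 1.5-fold higher, against 3.68%. Cct2 was 1.38-fold lower, Cct6a 1.30-fold, and Cct7 and Cct8 each 1.25-fold. Cct4 (-0.15) and Cct5 (-0.07) stayed closer to their 18 h level, and Tcp1 was at 0.03. Set directly against 6 h, the 90 h pool had a median of 0.15 with 5 of 8 above 0, as were 51.7% of all genes. Cct6a was furthest below (-0.51) and Cct4 furthest above (0.40). None was 1.5-fold away, as 7.66% of all genes were upward and 6.24% downward.

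Of the 8 subunits, 6 had their highest level at 18 h (Cct2, Cct3, Cct4, Cct5, Cct7 and Cct8). Among the 5083 genes above the floor in all 4 pools 21.8% did. The 6 h pool was highest for 1 subunit, Cct6a, and 24.7% of genes, the 90 h pool for 1, Tcp1, and 25.7%, and the unexposed pool for none, against 27.7%. Measured by the root mean square distance between log2 courses centred on their own means, over the 4 pools, Cct8 lay nearest to the median course of the subunits (0.05), followed by Cct5 (0.09), Cct7 (0.10) and Cct4 (0.11). Tcp1 (0.12) and Cct2 (0.13) were further away, and Cct6a (0.23) and Cct3 (0.27) furthest. Other genes lay nearer than any subunit. By nearness among the 5083 genes, Cct8 ranked 43, Cct5 218, Cct7 275, Cct4 401, Tcp1 522 and Cct2 616. Cct6a ranked 2375 and Cct3 3096, so a large share of all genes lay nearer than these. The 8 nearest were Ccnd1, encoding the G1 cyclin D1, Rnf34, Serpinb6a, Ndufv1, a subunit of respiratory complex I, Tspo, a protein of the outer mitochondrial membrane, Enah, an actin regulator, Tmem97 and U2af2, a splicing factor. Their distances ran from 0.008 to 0.024. Ccnd1, the nearest, read 574, 602, 772 and 636 units in the unexposed, 6, 18 and 90 h pools. In 4 pools such likeness is a description of these arrays.

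**Figure D3:**
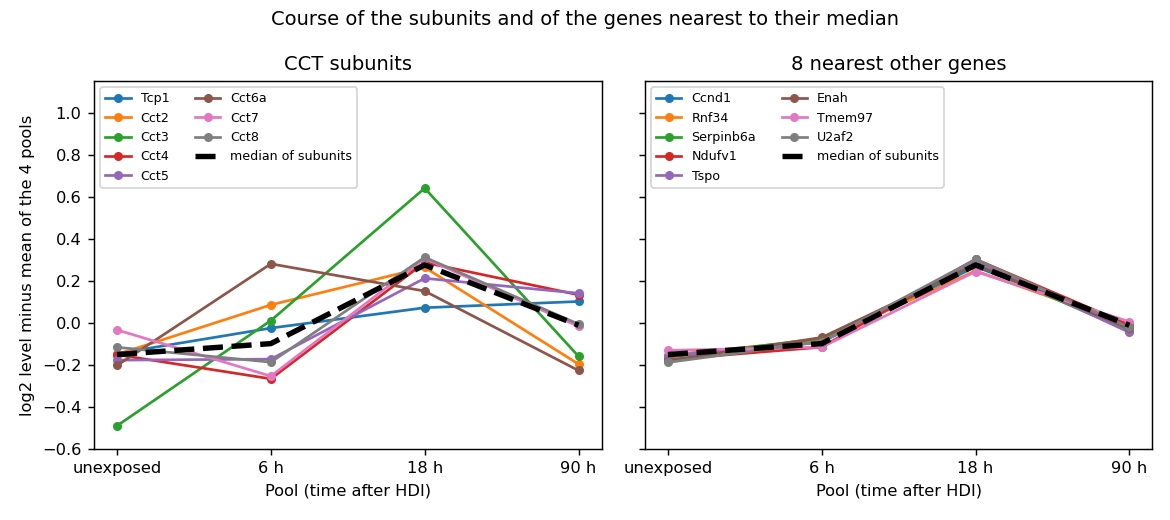
Log2 level minus the mean of the 4 pools (y axis) in each pool (x axis), for the 8 subunits (left) and the 8 other genes nearest to their median course (right). The dashed black line is the median of the subunits, which is highest at 18 h (0.27). Cct3 departs from it at 18 h and in unexposed lungs and Cct6a at 6 h.

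The partners of CCT were measured in part. Of 10 prefoldin and co-chaperone genes 7 were on the array, and Pfdn1 and Pfdn5 were at the floor throughout. At 18 h 4 of the remaining 5 were above 0, against 48.1% of all genes, with a median of 0.29. None was at least 1.5-fold higher, against 6.79% of all genes. Pfdn2, a prefoldin subunit, read 214, 271, 261 and 230 units in the unexposed, 6, 18 and 90 h pools, and Vbp1, another, 227, 277, 277 and 260 units. Both were thus as high at 6 h as at 18 h. Txndc9, a co-chaperone of the phosducin-like family, had log2 differences of 0.38, 0.43 and 0.35. Pfdn6 went the other way, with 317, 225, 187 and 215 units, 1.70-fold below unexposed lungs at 18 h. Pdcl3 differed by no more than 0.18.

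The genes of actin and tubulin, which CCT folds, lay on both sides of 0. Of 17 actin and tubulin genes compared at 18 h, 9 were above 0, against 48.1% of all genes, with a median of 0.05. At least 1.5-fold higher were 2, against 6.79% of all genes, and 1 was lower, against 6.13%. Acta1, the skeletal muscle actin, was at the floor in unexposed lungs and at least 7.86-fold and 5.05-fold higher at 6 and 18 h. Tubb2a, a beta-tubulin, was 1.77-fold and 1.99-fold higher at 6 and 18 h, by a probe set marked for possible cross-hybridisation. Other beta-tubulins were higher at 18 h by less: the log2 differences were 0.45 for Tubb6 and 0.35 for Tubb5, also by marked probe sets. Near-identical tubulin genes can share probes. Actb, the beta-actin gene, was 1.63-fold lower at 18 h by a dim marked probe set (81.8 units at 18 h and 133 units in unexposed lungs), whereas the 3' control probe set for beta-actin read 7917 and 8155 units in those pools. At 90 h 3 of 16 were above 0 (median -0.18), against 53.8% of all genes. None was 1.5-fold away, as 3.40% of all genes were upward and 4.88% downward, with Acta2, the smooth muscle actin, at -0.49.

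Among 4 tubulin folding cofactors Tbcb read 219, 147, 321 and 232 units in the unexposed, 6, 18 and 90 h pools. It was thus lowest at 6 h and highest at 18 h, as Cct4, Cct7 and Cct8 were. Its log2 difference from unexposed lungs was 0.55 at 18 h, and the other 3 lay between 0.02 and 0.15. At 90 h Arl2, a GTPase that acts with the cofactors, was furthest from 0, at 0.09. Of 8 other known clients compared, 4 were above 0 at 18 h (median 0.09), against 48.1% of all genes. Vhl, the substrate receptor of a ubiquitin ligase for hypoxia-inducible factors, was 1.51-fold, 1.54-fold and 1.51-fold lower at 6, 18 and 90 h. Cdc20, which activates the anaphase-promoting complex, was 2.70-fold higher at 90 h, when the summed dividing cell markers, which include it, were also highest.

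Other protein quality control genes are set beside the subunits, with no test of a difference. Of 17 cytosolic heat shock chaperones and co-chaperones the median was 0.41, 0.53 and 0.32 at 6, 18 and 90 h. At 6 h 13 of 17 were above 0, against 45.4% of all genes; 6 passed 1.5-fold upward, against 7.15%, and 1 downward, against 6.06%. At 18 h 14 of 17 were above 0, against 48.1%, and 7 passed 1.5-fold upward, against 6.79%. The inducible Hsp70 genes Hspa1b and Hspa1a were 6.30-fold and at least 5.27-fold higher at 6 h, and Hspb8, a small heat shock protein, 3.78-fold. At 18 h these were 5.38-fold, at least 4.67-fold and 2.37-fold higher. At 90 h Hspa1b was 2.09-fold and Hspa1a at least 1.55-fold higher. Hspa4, an Hsp70 nucleotide exchange factor, was 2.20-fold lower at 6 h. Hsph1, another exchange factor, read 148, 240, 307 and 290 units in the unexposed, 6, 18 and 90 h pools. Its log2 difference was 0.70 at 6 h, and it was 2.08-fold and 1.96-fold above unexposed lungs at 18 and 90 h. Stip1, which joins Hsp70 to Hsp90, read 215, 253, 393 and 331 units in the same pools.

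The mitochondrial chaperonin, a relative of CCT, had its highest level at 18 h as well. Hspd1, its barrel subunit, read 444, 507, 713 and 538 units in the unexposed, 6, 18 and 90 h pools, and Hspe1, its lid, 342, 316, 520 and 448 units. At 18 h they were 1.61-fold and 1.52-fold above unexposed lungs. With their partners, 5 of 6 mitochondrial chaperone genes were above 0 at 18 h (median 0.56), against 48.1% of all genes. The medians at 6 and 90 h were 0.04 and -0.05. Hspa9, the mitochondrial Hsp70, was 1.72-fold higher at 6 h. The 12 endoplasmic reticulum chaperones had medians of 0.27, 0.36 and 0.21 at 6, 18 and 90 h. Among them Hspa5, the main Hsp70 of that compartment, was 1.84-fold and 1.73-fold higher at 6 and 18 h, and Dnajb9 2.04-fold and 1.53-fold. Manf had log2 differences of 0.59 and 0.72 at these times. At each of them 10 of 12 were above 0, against 45.4% and 48.1% of all genes. At least 1.5-fold higher were 3 at each time, against 7.15% and 6.79% of all genes. Hsp90b1 (-0.24 and -0.25) and Pdia3 (-0.08 and -0.16) were below 0 at both times.

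The proteasome degrades proteins tagged with ubiquitin. At 18 h the median log2 difference was 0.40 for CCT and 0.66 for the proteasome. There 32 of 33 proteasome subunits were above 0, against 48.1% of all genes. Of the CCT subunits 1 of 8 was at least 1.5-fold higher, against 22 of 33 proteasome subunits and 6.79% of all genes. Psma5, Psmb3 and Psmd14 were 2.56-fold, 2.55-fold and 2.53-fold higher, and Psmc2 read 397 units at 18 h against 198 units in unexposed lungs. At 6 h the proteasome median was 0.36, and 9 of 32 were at least 1.5-fold higher, against 7.15% of all genes. At 90 h it was 0.06 with none, against 3.40% of all genes, and Psmb7 was furthest from 0 (0.38, by a marked probe set). The leading members at 6 h were Psmd11 (1.95-fold), Psmd14 (1.83-fold), Psmc2 (1.79-fold) and Psmd6 (1.61-fold). For 90 h over 18 h the median was -0.32 for CCT, against -0.65 for the proteasome.

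**Figure D4:**
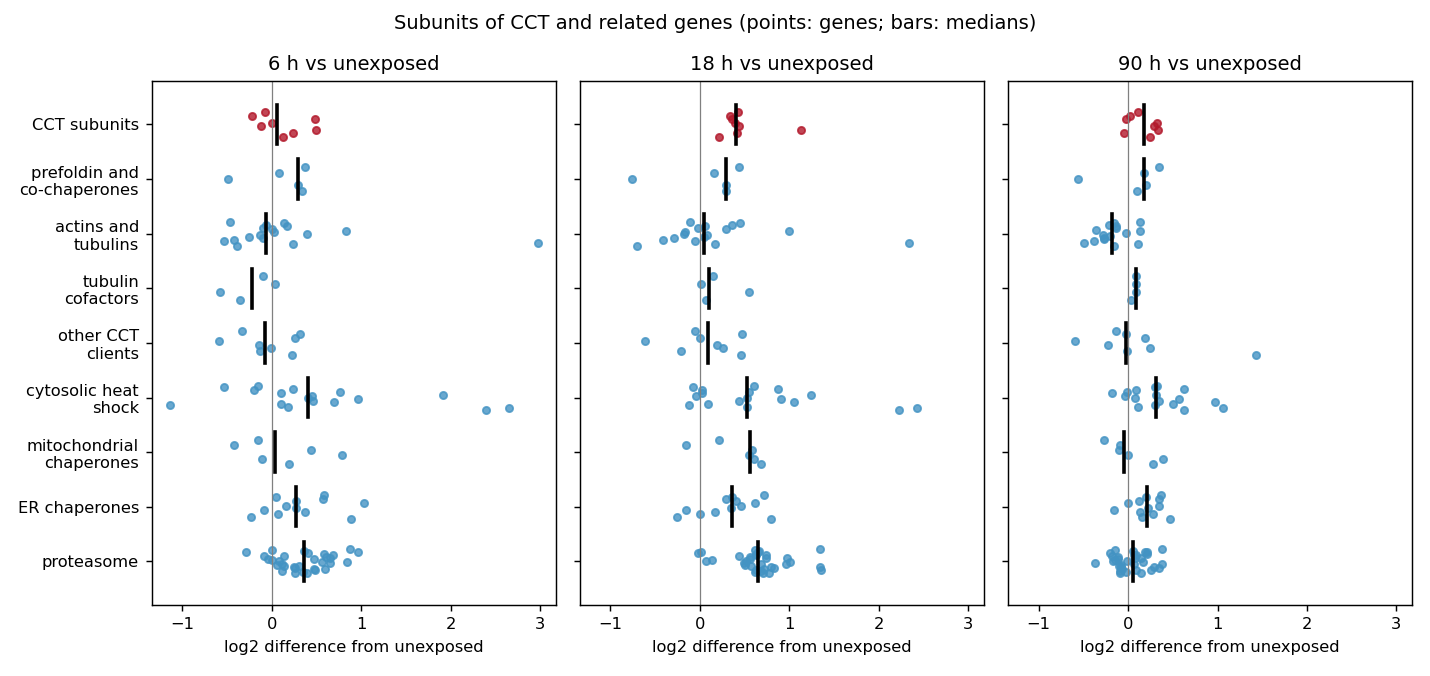
Log2 difference from the unexposed pool (x axis) at 6, 18 and 90 h for the CCT subunits (red) and for genes of related lists (blue), 1 point per gene, with the median of each list as a black bar. The CCT median is 0.06 at 6 h, 0.40 at 18 h and 0.18 at 90 h, while the cytosolic heat shock median is 0.41 at 6 h already.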

How the data were processed

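Whole lung pools were measured on 4 arrays, 1 per group, so nothing was tested and no p-value is given. The deposited values are linear intensities, 1 for each probe set on each array; how the authors' software computed and scaled them is not stated. Symbols are those of the platform annotation, of which 0 changed on lookup by gene identifier. Of 12422 non-control probe sets 10833 had 1 symbol, 396 several and 1193 were not listed.

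Each array was scaled to a common mean after trimming 2% at each end (factors 1.07, 0.992, 0.970 and 0.972 for unexposed, 6, 18 and 90 h), floored at the 40th percentile and put on log2. Genes above the floor on at least 1 of the 2 arrays were compared. The code was tested on simulated data. The thresholds were 1.5-fold and 2-fold. Named genes were all members, per list up to 4 genes past 1.5-fold with the largest differences (the largest one where none passed), and the 8 nearest courses; other genes were named after their values were seen. The alternatives were unscaled, median, quantile and cyclic loess scaling (limma 3.58.1), floors at the 25th and 60th percentile, a pseudocount of 32, averaged probe sets and leaving out marked probe sets. The members and lists were chosen with earlier results of these data known. The number of arrays limits the precision.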

Additional observations from a re-analysis of the deposited data

How the results depend on the processing

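The subunits' median at 18 h over unexposed lungs ranged from 0.37 to 0.55 over 9 alternatives and was above 0 in all of them. The 9 alternatives for the 18 h over 6 h median gave 0.35 to 0.50, and those for 90 h over 18 h -0.35 to -0.24. The medians that moved by over 0.1 did so with deposited values unscaled: 0.17 at 6 h, 0.55 at 18 h and 0.32 at 90 h over unexposed lungs. That setting also moves the median of all genes, to 0.07, 0.12 and 0.16, so the subunits exceeded all genes by 0.11, 0.43 and 0.16, against 0.10, 0.42 and 0.15 after scaling. The share of higher genes among those past 1.5-fold was 73.2%, 77.8% and 72.1% unscaled and 54.1%, 52.6% and 41.0% scaled at 6, 18 and 90 h. Among those past 2-fold it was 81.6% unscaled and 62.7% scaled at 18 h, and 61.2% and 44.0% at 90 h. The 6 h median was -0.02 with probe sets averaged.

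Counts at least 1.5-fold higher stayed at 1 at 18 h over unexposed lungs in all 10 alternatives, by Cct3, whose log2 difference ranged from 0.88 to 1.27. At 6 h the count was 2 unscaled in place of 0, while all genes went from 432 of 6044 to 603 of 5971. At 18 h over 6 h it was 3 unscaled and 2 with median scaling, in place of 1. It was 0 with a pseudocount, with averaged probe sets or at 2-fold. Of all genes 387 of 6036 were called unscaled, 371 of 6005 with median scaling and 320 of 5994 as scaled. With a pseudocount 298 of 8251 were, with averaged probe sets 262 of 5999, and at 2-fold 71 of 5994. With averaged probe sets the subunit count was 1 at 90 h over 18 h and 1 at 90 h over 6 h, in place of 0. Both were Cct6a (0.66 and 0.59), and 182 of 5983 and 382 of 6062 genes were called there. Of 426 single subunit values under alternatives 421 moved by less than the probe set disagreement, and the 5 that moved were all of Cct6a with averaged probe sets. Leaving out marked probe sets removes Cct6a and leaves the other subunits unchanged. The cause of the other shifts was not tested. No paired analysis was possible because each group has 1 array. Dim probe sets limit what can be said of Pfdn1, Pfdn5 and the other genes at the floor.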
